A study of Mus musculus with 10 samples.

Results

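Lta, Ltb, Tnf, Ebi3, Il6, Il10, Il15 and Tgfb1 encode cytokines that B cells can release or display once they are activated. They were taken as the genes with these symbols or synonyms in the array's annotation table. That gave 8 genes with 9 probe sets, of 18193 named genes and 45037 probe sets in all, with 2 probe sets for Tgfb1 and 1 for each other gene. Their levels were compared between B cells of mice with the genotypes irf4+/+ (wild type) and irf4-/-, written here as Irf4+/+ and Irf4-/-. Irf4 is a transcription factor of lymphocytes. All mice were littermates aged 12 weeks of the strain C57BL/6. Mature B cells were enriched from spleen by removing other cells with magnetic beads, then cultured for 3 days with anti-CD40 antibody and IL-4 at 20 ng/ml, in both genotypes alike. There were 5 arrays per genotype. Nothing says whether they are separate mice or cultures, so the p-values reflect only how much these samples vary, which may be technical. The Irf4 transcript was still detected in Irf4-/- samples, at 74.2% of the Irf4+/+ signal on its brighter probe set. In the limma fit described below, this fall was called (adjusted p = 9.37e-06). The dimmer Irf4 probe set was at 76.3%, with overlapping groups, and was not called in that fit (adjusted p = 0.0530). Which part of the gene is disrupted, and in which cells of the mouse, is not stated in the labels.

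Lymphotoxin alpha (Lta), lymphotoxin beta (Ltb) and tumour necrosis factor (Tnf) form one branch of the TNF superfamily. Lymphotoxin alpha is secreted as a homotrimer or held on the cell surface in a trimer with lymphotoxin beta, and B cell lymphotoxin maintains follicular dendritic cells and the architecture of the spleen. Ebi3 pairs with other chains to form IL-27 or IL-35, and IL-6, IL-10 and TGF-beta are released by B cells that help or restrain T cells. IL-15 is mostly presented to neighbouring cells on its receptor's alpha chain.

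Values are linear array signals in MAS5 units, 1 per probe set and array, and the number of arrays limits their precision. Array medians were 37.2 to 45.0. Log2 fold changes are Irf4-/- minus Irf4+/+ on the scale log2(signal + 7.9), which understates changes of dim genes, and a probe set was called at an adjusted p under 0.05 in the limma fit over all 27022 probe sets tested. Signals of different probe sets are not comparable as amounts of RNA.

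The B cell markers Cd79a, Cd79b and Ms4a1 were bright on both sides (means 2228, 5978 and 9007 in Irf4+/+, and 5184, 13250 and 14550 in Irf4-/- samples). All 9 tested B cell markers were called higher in Irf4-/- samples on their brightest probe set, although 4 other probe sets of Ighm were called lower. Markers of other cells differed too, where 22.6% of all tested genes were called higher and 23.2% lower. The summed signal of 9 natural killer cell markers was 1301 to 1544 in Irf4+/+ and 11520 to 15970 in Irf4-/- arrays. The granzymes Gzma and Gzmb made up 80.9% to 89.8% of it in Irf4+/+ and 91.8% to 93.5% in Irf4-/- arrays. The other 7 markers summed to 157.6 to 247.9 and 913.5 to 1040, and the receptor Ncr1 was dim (16.2 ± 7.83 and 45.7 ± 10.3). All 9 were called higher, but 4 of them (Ncr1, Klrd1, Klre1 and Nkg7) passed the filter on dim probe sets only through their Irf4-/- values. The sum without the granzymes includes these 4 and so leans towards Irf4-/- arrays. The summed signal of 6 macrophage markers was 422.9 to 493.7 and 1227 to 1429, with 3 of 6 called higher, while Cd14 stayed near the floor (6.16 and 13.7). The sum of 5 granulocyte and mast cell markers was 108.7 to 173.8 and 583.7 to 1002, with 3 called higher, of which S100a8 and S100a9 passed the filter only through Irf4-/- values. For 4 dendritic cell markers it was 690 to 819.6 and 511.9 to 580.2, with Itgax and Zbtb46 called higher and Flt3 called lower, from 417.3 ± 29.7 to 53.2 ± 15.6. The list's median log2 fold change was 0.48, so that the lower sum rests on Flt3. That median includes Cd209a, which was not called and passed the filter only through Irf4-/- values. For 3 T cell markers it was 173.8 to 212.8 and 151.8 to 162.9, with Cd28 called lower and the other two not called. The T cell receptor chains Cd3d, Cd3e and Cd3g were near the floor in both genotypes (at most 12.0). Fewer cells of a type and less RNA per cell cannot be told apart in these bulk samples.

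Of the 9 cytokine probe sets, 7 were called: 6 were higher in Irf4-/- samples and 1 was lower. Over all tested probe sets 39.7% were called, 20.4% higher and 19.3% lower. The genotypes did not overlap on any array for 6 of the 9, against 29.6% of all tested probe sets. Higher in Irf4-/- samples were Il15, Ltb, Ebi3, Il10, Tgfb1 and Lta, and lower was Il6. Tnf was not called. The median log2 fold change of the 9 was 0.52, and that of all tested probe sets was 0.02. Il10 passed the filter on dim probe sets only because its Irf4-/- values entered the mean.

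**Figure D1:**
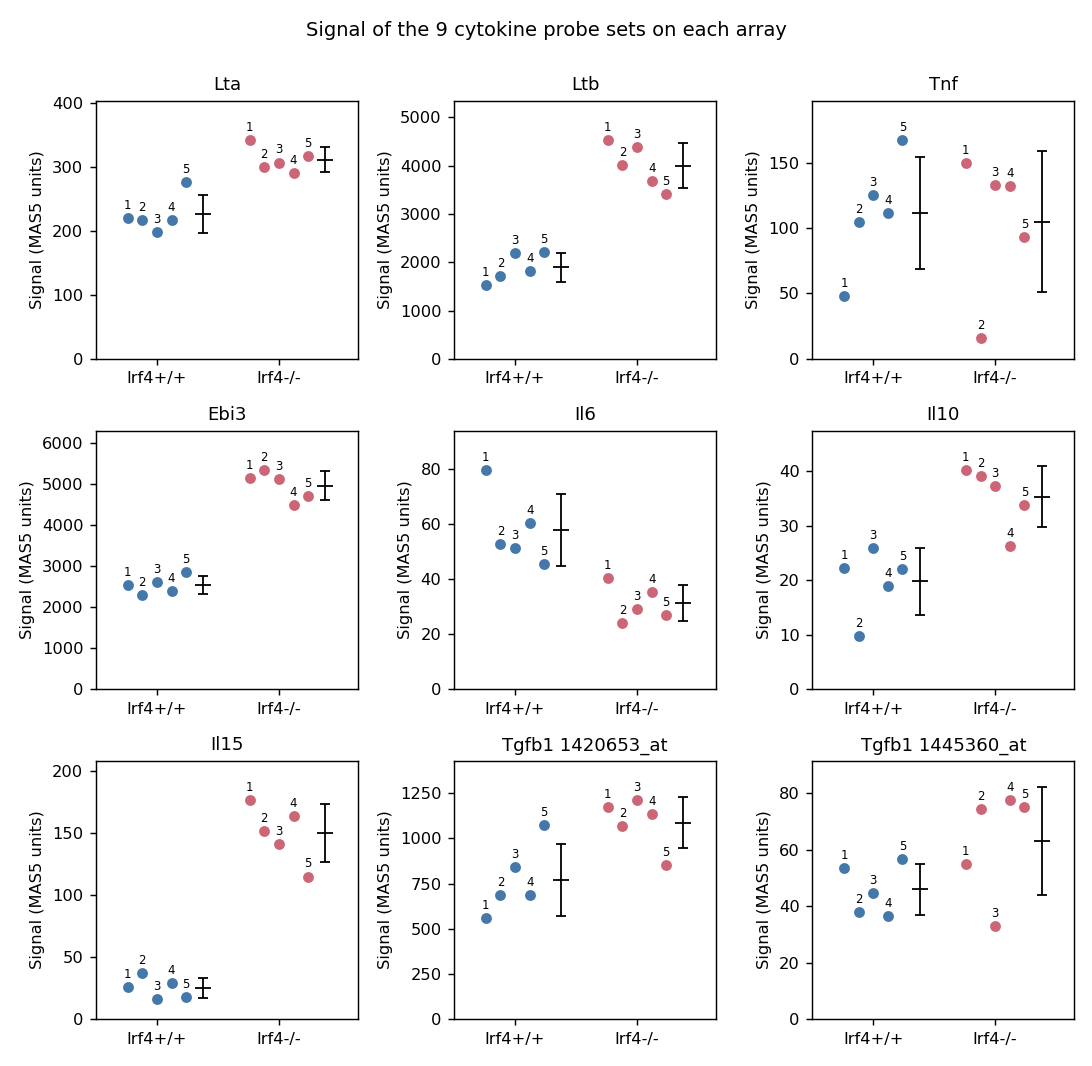
Deposited signal (MAS5 units, linear axis from 0) of each cytokine probe set on the 5 Irf4+/+ arrays (blue) and the 5 Irf4-/- arrays (red), numbered by replicate, with the mean and SD in black. The groups are apart for Lta, Ltb, Ebi3, Il6, Il10 and Il15 and overlap for Tnf and for both Tgfb1 probe sets.

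Ltb showed the larger change of the lymphotoxin chains. Its signal on Irf4+/+ arrays 1 to 5 was 1520.5, 1714.8, 2192.1, 1826.8 and 2206.7. On Irf4-/- arrays 1 to 5 it was 4524.4, 4016.2, 4385.3, 3677.0 and 3411.1. All Irf4-/- arrays lay above all Irf4+/+ arrays. The means were 1892 ± 301 and 4003 ± 468 (SD, n = 5), a 2.12-fold difference (log2 1.08, SE 0.101, adjusted p = 2.28e-07).

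Lta, the secreted partner of Ltb, rose by less. Irf4+/+ arrays 1 to 5 gave 220.8, 217.1, 197.9, 216.8 and 276.8. Irf4-/- arrays 1 to 5 gave 341.7, 300.6, 307.1, 289.9 and 318.0. The groups were apart by a narrow margin, between Irf4+/+ array 5 and Irf4-/- array 4. The change was 0.46 on the log2 scale (SE 0.0942, 1.37-fold, adjusted p = 0.000894), with means of 225.9 ± 29.8 and 311.5 ± 19.7 (SD, n = 5). Natural killer cells also make lymphotoxins. Their markers without the granzymes, summed, were higher in the same arrays (157.6 to 247.9 against 913.5 to 1040). That sum leans towards Irf4-/- arrays, since Ncr1, Klrd1, Klre1 and Nkg7 passed the filter only through Irf4-/- values. The part of natural killer cells in the rise of Ltb and Lta was not tested.

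Tnf, the inflammatory founder of the family, was not called. Irf4+/+ arrays 1 to 5 gave 48.2, 104.2, 125.2, 111.6 and 166.9. Irf4-/- arrays 1 to 5 gave 149.7, 16.2, 132.6, 132.1 and 93.4. Both groups covered most of the same range, and Irf4-/- array 2 was far below the rest. On the log2 scale the difference was -0.24 (SE 0.420, adjusted p = 0.697). Its 95% interval, from -1.13 to 0.65, takes in the change of Lta, and the difference between Tnf and its neighbours was not tested. Without Irf4-/- array 2 the value changed sign, to 0.25 (adjusted p = 0.487), and it ranged from -0.49 to 0.25 over the arrays left out (adjusted p from 0.392 to 0.911).

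These genes lie side by side in the order Ltb, Tnf, Lta on mouse chromosome 17, in the gene table of RefSeq for GRCm38.p6. Of the 11 other annotated genes within 5 places, 5 were tested, of which 2 were called higher and 0 lower. Over all tested genes the shares were 22.6% and 23.2%. Lst1, a leukocyte gene next to Ltb, rose from 223.4 ± 27.4 to 954.6 ± 173 (log2 fold change 2.05, SE 0.119, adjusted p = 7.40e-10). Nfkbil1, on the Lta side, rose from 121 ± 22.7 to 182.9 ± 19.6 (log2 fold change 0.58, adjusted p = 0.00168). Prrc2a, Atp6v1g2 and the RNA helicase Ddx39b had log2 fold changes of -0.14, 0.15 and -0.18 and were not called (adjusted p = 0.297, 0.693 and 0.0681). Ddx39b was called lower with quantile normalization, with median centring and without Irf4+/+ array 2 (adjusted p = 0.0231, 0.0339 and 0.0221).

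**Figure D2:**
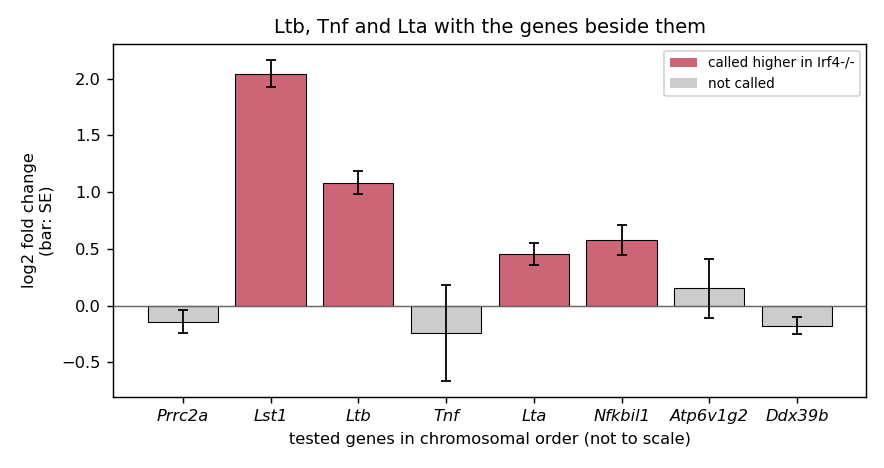
Log2 fold change (Irf4-/- minus Irf4+/+, bars with SE) of the tested genes around Ltb, Tnf and Lta, in chromosomal order and not to scale. Lst1, Ltb, Lta and Nfkbil1 are called higher, while Tnf, which lies between Ltb and Lta, has a wide error and is not called.

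Promoter windows of 300 bases, from 250 before to 50 after the annotated start, were found for 6 of the 8 genes in the RefSeq table for GRCm38.p6 (Il6, Tgfb1, Ltb, Tnf, Lta and Ebi3). They were searched on both strands for GAANNGAAA (the core of the ETS-IRF composite element), AAANNGAAA (the core of the interferon-stimulated response element), TGANTCA (the AP-1 core) and the NF-kB consensus. Ltb and Ebi3 are shown because they had the highest fold changes among the genes with a window, and Il6 because it is the gene that fell. Capitals mark the matches.
Ltb, chr17:35194257-35194556, plus strand: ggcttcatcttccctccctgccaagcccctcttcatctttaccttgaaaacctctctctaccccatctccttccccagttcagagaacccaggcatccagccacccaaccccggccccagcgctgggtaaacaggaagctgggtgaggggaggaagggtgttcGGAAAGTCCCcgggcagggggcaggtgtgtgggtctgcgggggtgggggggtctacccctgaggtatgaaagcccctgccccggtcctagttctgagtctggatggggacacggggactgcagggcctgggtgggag
Ebi3, chr17:55952373-55952672, plus strand: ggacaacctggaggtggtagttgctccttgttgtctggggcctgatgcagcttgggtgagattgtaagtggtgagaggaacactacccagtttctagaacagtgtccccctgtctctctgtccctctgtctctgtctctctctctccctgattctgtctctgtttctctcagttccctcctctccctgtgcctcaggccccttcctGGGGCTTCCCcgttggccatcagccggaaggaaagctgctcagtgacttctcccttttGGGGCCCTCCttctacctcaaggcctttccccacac
Il6, chr5:30012864-30013163, plus strand: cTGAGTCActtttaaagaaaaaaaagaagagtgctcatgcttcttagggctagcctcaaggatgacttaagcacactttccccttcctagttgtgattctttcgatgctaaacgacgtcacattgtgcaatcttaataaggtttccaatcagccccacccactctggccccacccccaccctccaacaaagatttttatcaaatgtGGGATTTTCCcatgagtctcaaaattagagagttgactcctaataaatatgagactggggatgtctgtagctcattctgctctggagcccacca

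In the Ltb window the NF-kB consensus matched on the minus strand, its first base 87 bases before the start. Ebi3 had matches that began 44 bases before and 14 bases after the start, and Il6 had 1 that began 44 bases before it. The capitals at the 5′ end of the Il6 window are an AP-1 core. In all, 4 of the 6 windows held the NF-kB consensus (Ltb, Ebi3, Il6 and Tgfb1), which 5.8% of all 32851 windows of this length held, and 1 held the AP-1 core (7.81% of all windows). The ETS-IRF core (7.52% of all windows) and the interferon response core (10.6%) matched in 0 of 6, and the Tnf and Lta windows held no match. The Lta window, chr17:35205302-35205601 on the minus strand, is set on a start that lies inside the gene as the gene table gives it. Most of that window is within the gene, so its lack of matches does not describe the sequence upstream of Lta. The counts over 6 windows include it. No match overlapped another. These are matches of letters within the windows, and binding was not measured.

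Ebi3, the shared chain of IL-27 and IL-35, nearly doubled with little spread. Irf4+/+ arrays 1 to 5 gave 2537.0, 2288.2, 2611.5, 2392.1 and 2843.3. Irf4-/- arrays 1 to 5 gave 5148.2, 5328.8, 5114.9, 4476.5 and 4711.1. The lowest Irf4-/- array was far above the highest Irf4+/+ array. Means were 2534 ± 213 and 4956 ± 350 (SD, n = 5), a 1.95-fold difference (log2 0.97, SE 0.0668, adjusted p = 6.05e-09). Il12a, the chain that joins Ebi3 in IL-35, was 138.4 ± 12.4 and 139.2 ± 25.2 and was not called (adjusted p = 0.983).

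Il15 had the largest fold change of the 8 genes, from a signal near the floor. Irf4+/+ arrays 1 to 5 gave 25.5, 36.7, 16.3, 28.8 and 18. Irf4-/- arrays 1 to 5 gave 176.3, 152.0, 141.3, 163.9 and 114.9. The groups were well apart. On the log2 scale the change was 2.28 (SE 0.191, 4.86-fold, adjusted p = 6.30e-08), with means of 25.1 ± 8.31 and 149.7 ± 23.4 (SD, n = 5). Its size depends on the pseudocount, with 1.78 at the 40th percentile of signal and 2.58 at a pseudocount of 1. Macrophages make IL-15, and their summed markers were higher in the same arrays (422.9 to 493.7 against 1227 to 1429). Markers of natural killer cells, which respond to IL-15, were also higher (157.6 to 247.9 against 913.5 to 1040 without the granzymes). That sum includes the markers, named above, that passed the filter only through Irf4-/- values. The part of macrophages or natural killer cells in the rise of Il15 was not tested.

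Il6, a growth factor for plasma cells and a helper of T cell responses, was the gene that fell. Irf4+/+ arrays 1 to 5 gave 79.4, 52.6, 51.3, 60.3 and 45.3. Irf4-/- arrays 1 to 5 gave 40.2, 24.1, 29.1, 35.3 and 26.9. The groups did not overlap, and Irf4+/+ array 5 and Irf4-/- array 1 came closest. Means were 57.8 ± 13.2 and 31.1 ± 6.54 (SD, n = 5), 1.68-fold lower in Irf4-/- samples (log2 fold change -0.75, SE 0.204, adjusted p = 0.00747). The Irf4-/- mean is close to 26.1, the 40th percentile of all signals, so the size depends on the pseudocount. Among markers of other cells, Flt3 of the dendritic cell list and Cd28 of the T cell list were also called lower, while Itgax and Zbtb46 of dendritic cells were called higher, and their part was not tested.

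Il10, the main inhibitory cytokine of regulatory B cells, was dim throughout. Irf4+/+ arrays 1 to 5 gave 22.3, 9.7, 25.9, 19.0 and 22.0. Irf4-/- arrays 1 to 5 gave 40.2, 39.1, 37.4, 26.3 and 33.8. The groups were apart only by the gap between Irf4+/+ array 3 and Irf4-/- array 4. Il10 passed the filter on dim probe sets only through its Irf4-/- values. On the log2 scale the change was 0.67 (SE 0.254, adjusted p = 0.0469), a call at the edge of the threshold. It was lost with 8 of the 10 arrays left out in turn (all but Irf4+/+ array 3 and Irf4-/- array 4), with adjusted p from 0.0371 to 0.112, and with the replicate number as a block (adjusted p = 0.0780).

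Tgfb1 encodes a cytokine that restrains lymphocytes and directs switching to IgA. Its brighter probe set gave 556.7, 686.5, 840.8, 685.6 and 1073.7 on Irf4+/+ arrays 1 to 5. On Irf4-/- arrays 1 to 5 it gave 1172.2, 1067.6, 1210.8, 1137.4 and 852.7. The groups overlapped because Irf4+/+ array 5 lay above Irf4-/- arrays 2 and 5, and 3 of 5 Irf4-/- arrays lay above all Irf4+/+ arrays. On the log2 scale the change was 0.52 (SE 0.139, 1.44-fold, adjusted p = 0.00628), with means of 768.7 ± 198 and 1088 ± 142 (SD, n = 5). The dimmer probe set gave 45.9 ± 9.05 and 63.0 ± 19.1, and the difference of 0.36 on the log2 scale (SE 0.221) missed the threshold (adjusted p = 0.217). Leaving out Irf4-/- array 3 took it past the threshold (0.55, adjusted p = 0.0350). Macrophage markers, from cells that also make TGF-beta, were higher in Irf4-/- arrays (ranges above), and their part was not tested.

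**Figure D3:**
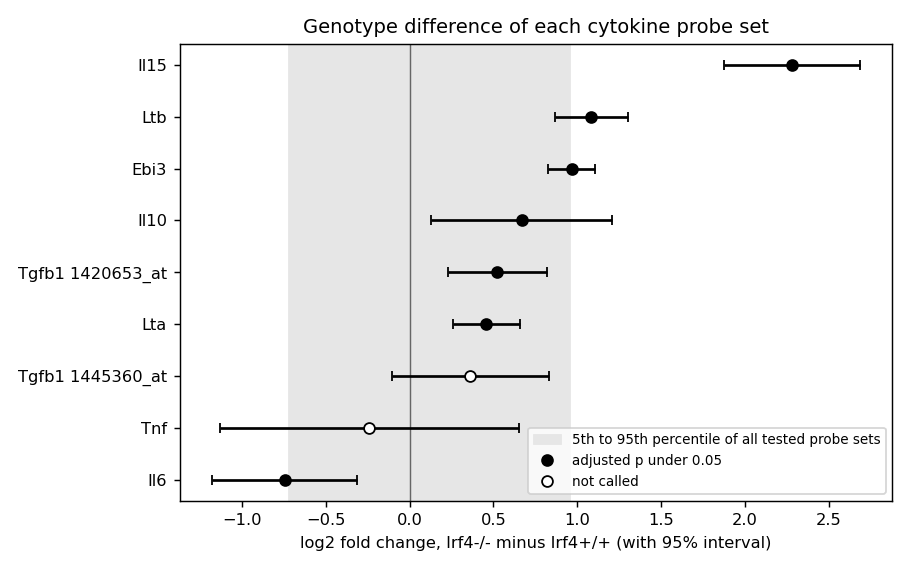
Log2 fold change of each cytokine probe set (points, Irf4-/- minus Irf4+/+) with its 95% interval, beside the 5th to 95th percentile of all tested probe sets (grey, -0.72 to 0.96). Il15, Ltb and Ebi3 lie above the grey band and Il6 just below it, and the interval of Tnf, from -1.13 to 0.65, spans 0.

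Receptors of these cytokines moved in both directions. Of 13 tested, 7 were called higher and 2 lower, where the shares over all 12246 tested genes were 22.6% and 23.2%. The list's median log2 fold change was 0.43. The 7 and the median include Tnfrsf14 and Il10ra, which passed the filter only through Irf4-/- values. Tgfbr2, the ligand-binding TGF-beta receptor, rose from 1025 ± 77.0 to 1710 ± 75.0 (log2 fold change 0.74, adjusted p = 8.13e-08), and its signalling partner Tgfbr1 rose 1.55-fold, a call lost when its probe sets were averaged (adjusted p = 0.0756). Il2rb, the signalling chain for IL-15 that natural killer cells also carry, rose 2.73-fold from 57.1 ± 14.2 to 167.4 ± 19.4. The part of those cells in its rise was not tested. Tnfrsf14, which binds lymphotoxin alpha and LIGHT, was at 6.54 ± 1.87 in Irf4+/+ samples, under the pseudocount, and at 61.6 ± 21.6 in Irf4-/- samples (SD, n = 5). It passed the filter only through the Irf4-/- values, so no size of change is given. Il15ra, the chain that presents IL-15, rose from 64.1 ± 39.9 to 136.4 ± 10.3 (2.35-fold, adjusted p = 0.00635). Il10ra, the ligand-binding chain of the IL-10 receptor, was at 13.0 ± 8.87 and 77.2 ± 15.1 and, like Tnfrsf14, passed the filter only through Irf4-/- values. Il6st, the shared signalling chain of IL-6 and IL-27 receptors, fell from 178.1 ± 20.4 to 117.6 ± 11.7 (log2 fold change -0.57, adjusted p = 0.000564). The lymphotoxin beta receptor Ltbr, which stromal cells carry, was 78.2 ± 15.6 and 77.5 ± 18.5 and was not called (adjusted p = 0.941). Il15ra, Il10ra, Il6st and Ltbr, and Il12a above, were picked after their values were seen.

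Partner chains and other cytokines were mostly dim. Of 9 tested, 3 were called higher and 1 lower (22.6% and 23.2% of all tested genes), with a median log2 fold change of 0.15. Ifng, a product of natural killer and T cells, was at 11.1 ± 6.30 in Irf4+/+ and 101.8 ± 19.1 in Irf4-/- samples. It was called higher, but passed the filter only through Irf4-/- values, and its log2 fold change ran from 1.79 to 3.32 with the pseudocount. Natural killer markers without the granzymes were higher in these arrays (157.6 to 247.9 against 913.5 to 1040). Ncr1, Klrd1, Klre1 and Nkg7 enter that sum only through their Irf4-/- values. The part of natural killer cells in the rise of Ifng was not tested. Csf1, the macrophage growth factor, rose 1.31-fold (adjusted p = 0.000227). Il18 rose 1.75-fold (adjusted p = 0.0201), and lost its call without Irf4+/+ array 4 or 5 or Irf4-/- array 2 or 5 (adjusted p from 0.0506 to 0.0609). Tgfb2, a paralog of Tgfb1, was at 38.5 ± 5.07 and 18.2 ± 17.1 and was called lower (adjusted p = 0.0309). It passed the filter only through Irf4+/+ values, and lost its call without Irf4+/+ array 1, 2 or 5 or Irf4-/- array 2 or 4 (adjusted p from 0.0544 to 0.0778) and with no filter (0.0521).

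Among 7 other tested ligands of the TNF superfamily, 2 were called higher and 2 lower (median 0.29), beside 22.6% and 23.2% of all tested genes. Tnfsf9, the ligand of 4-1BB, fell from 907.6 ± 105 to 297.8 ± 14.7 (log2 fold change -1.58, adjusted p = 2.14e-10), and Cd70, the ligand of CD27, from 372.4 ± 52.1 to 192.1 ± 32.3 (log2 fold change -0.93, adjusted p = 1.15e-05). Tnfsf4, the OX40 ligand, rose 1.48-fold (adjusted p = 0.000218). Fasl, a death ligand of cytotoxic cells, was at 11.6 ± 7.82 and 74.1 ± 12.1, beside the natural killer markers given above. It was called higher, but passed the filter only through Irf4-/- values, and its log2 fold change ran from 1.43 to 2.79 with the pseudocount. The part of natural killer cells in the rise of Fasl was not tested.

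Genes that release TNF or activate TGF-beta were called higher for 5 of 10 and lower for 1 (median 0.25). Over all tested genes 22.6% were called higher and 23.2% lower. Nrros, which holds latent TGF-beta on leukocytes, rose from 1655 ± 124 to 2460 ± 275 (log2 fold change 0.56, adjusted p = 1.80e-05). Rhbdf1, a partner of the TNF sheddase, rose 1.52-fold (adjusted p = 2.55e-05). Adam17, the sheddase itself, rose 1.14-fold (adjusted p = 0.0153), a call lost with median centring and when its probe sets were averaged (adjusted p = 0.196 and 0.123). Adam10 rose 1.26-fold (adjusted p = 0.000513), and was not called when its probe sets were averaged (adjusted p = 0.10).

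TGF-beta signalling genes were called higher for 4 of 11 and lower for 3 (median 0.07), beside 22.6% and 23.2% of all tested genes. Smad2 and Smad3, which carry the receptor signal to the nucleus, rose 2.12-fold and 1.79-fold (adjusted p = 2.35e-09 and 2.83e-06). The inhibitory Smad7 rose 1.51-fold (adjusted p = 0.000374), and the corepressor Skil fell 1.23-fold (adjusted p = 0.00187), a call lost when its probe sets were averaged (adjusted p = 0.0540).

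In the list of IL-6, IL-10 and IL-15 signalling, 10 of 12 genes were called higher and 1 lower, with a median of 0.53. For this list and the next, the shares over all tested genes were 22.6% and 23.2%. Cish, a feedback inhibitor downstream of STAT5, rose from 1439 ± 72.7 to 2334 ± 136 (log2 fold change 0.69, adjusted p = 6.21e-08), and Socs3, the feedback inhibitor of IL-6 signalling, from 577.4 ± 71.9 to 955.3 ± 99.2 (log2 fold change 0.72, adjusted p = 7.29e-06). The kinase Jak2 rose 1.46-fold and the phosphatase Ptpn6 1.52-fold (adjusted p = 5.50e-06 and 4.08e-06). In the list of lymphotoxin and TNF signalling to NF-kB, 9 of 15 were called higher and 2 lower (median 0.28). Nfkb2 and Relb, the subunits that the lymphotoxin beta receptor and CD40 activate, rose 1.83-fold and 2.01-fold (adjusted p = 4.18e-06 and 4.90e-05). The adaptor Traf2 rose 1.5-fold and the inhibitor Nfkbie 1.32-fold (adjusted p = 4.55e-06 and 2.98e-05).

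Transcription factors known to act on Il10 were called higher for 6 of 10 and lower for 3 (median 0.27), beside 22.6% and 23.2% of all tested genes. Maf, an activator of Il10, was at 10.4 ± 7.34 and 133.8 ± 14.8, and macrophages and natural killer cells also express it. It was called higher, but passed the filter only through Irf4-/- values, and its log2 fold change ran from 2.15 to 3.86 with the pseudocount. The part of macrophages or natural killer cells in the rise of Maf was not tested. Nfil3 rose from 1877 ± 82.5 to 3562 ± 175 (log2 fold change 0.92, adjusted p = 8.23e-10) and Batf 1.55-fold (adjusted p = 2.04e-07). Crem, a cyclic AMP responsive factor, fell from 866.7 ± 26.7 to 372.1 ± 29.4 (log2 fold change -1.21, adjusted p = 5.16e-10). The RNA-binding regulators of cytokine transcripts were called higher for 2 of 14 and lower for 4 (median -0.07), beside the same shares of all tested genes. Zfp36l2, which promotes decay of AU-rich transcripts, fell 1.81-fold (adjusted p = 6.47e-07) and Zc3h12d 1.24-fold (adjusted p = 0.000399), while Rc3h2, a relative of roquin, rose 1.44-fold (adjusted p = 0.000206). Elavl1, which stabilises such transcripts, fell 1.22-fold on its brightest probe set (adjusted p = 0.000667) but averaging its probe sets turned the sign (log2 fold change 0.31, adjusted p = 0.00375).

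Surface markers used for regulatory B cells were called higher for 5 of 11 and lower for 3 (median 0.31), beside 22.6% and 23.2% of all tested genes. Of the higher ones, Cd5 and Lag3 passed the filter through their Irf4-/- values alone. Cd24a fell from 4906 ± 306 to 664.1 ± 82.2 (log2 fold change -2.88, adjusted p = 5.83e-14), and Havcr1, which encodes TIM-1, fell from 1272 ± 77.8 to 477.3 ± 45.7 (log2 fold change -1.40, adjusted p = 1.92e-10). The inhibitory ligand Cd274 rose from 144.9 ± 13.7 to 331.6 ± 22.2 (log2 fold change 1.15, adjusted p = 3.74e-08). Ctla4 fell 3.28-fold (adjusted p = 2.39e-06).

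**Figure D4:**
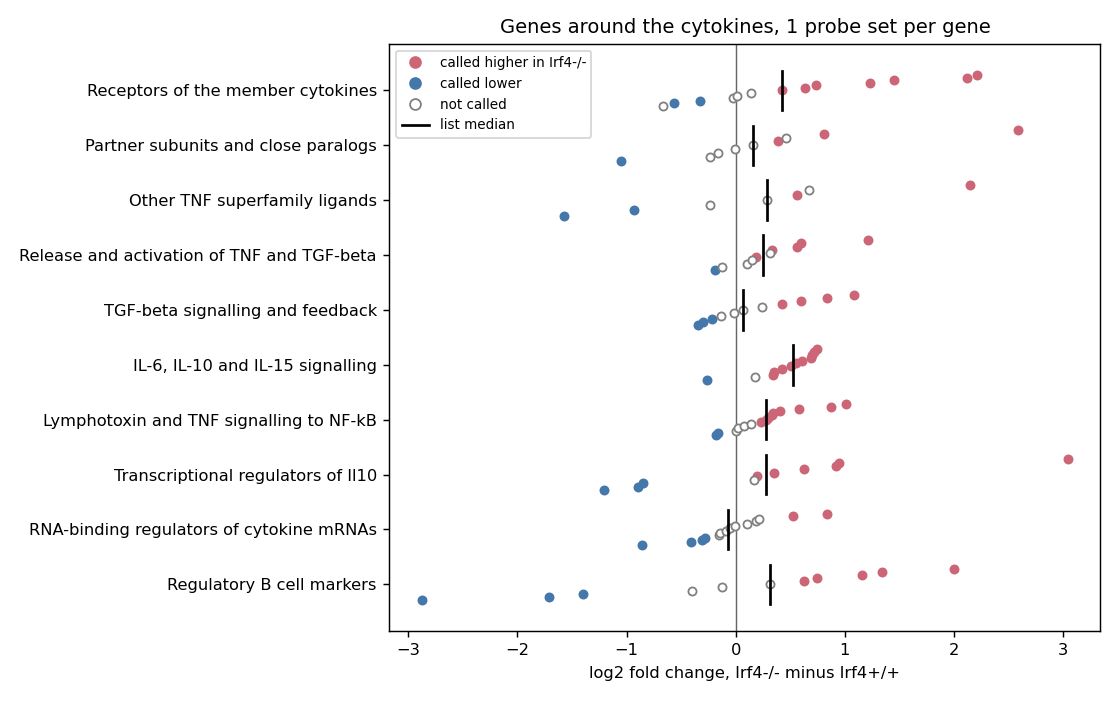
Log2 fold change (Irf4-/- minus Irf4+/+) of each tested gene in the 10 lists around the cytokines, 1 point per gene, with the list median as a black bar. The list of IL-6, IL-10 and IL-15 signalling has 10 of 12 genes called higher (22.6% of all tested genes), and regulatory B cell markers spread from Cd24a at -2.88 upwards. Of the called points, Tnfrsf14, Il10ra, Ifng, Fasl, Maf, Cd5 and Lag3 passed the filter only through Irf4-/- values, and Tgfb2 only through Irf4+/+ values. The medians include them.

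Pearson's r of log2 signal over the 10 arrays was used to find the genes most like each called cytokine. Both genotypes enter it, so r mostly follows the difference between them. For Ebi3 these were Ppm1m and Ctsh (r of 0.996 for both), and for Ltb Coro1a and Snapc2 (0.993 and 0.992). For Il15 they were Rbm5 and Rdh12 (0.997 and 0.994), for Lta Hexa and Tbc1d22a (0.980 and 0.969), and for Tgfb1 Tle5 and Vasp (0.984 and 0.981). For Il10 they were Mylpf and Dmac1 (0.976 and 0.973), and for Il6 Rbmx2 and Slc38a10 (0.967 and 0.960). An r over 0.9 was reached by 1270 genes for Ebi3, 1112 for Ltb, 1099 for Il15, 246 for Lta, 124 for Il6, 121 for Il10 and 89 for Tgfb1.

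**Figure D5:**
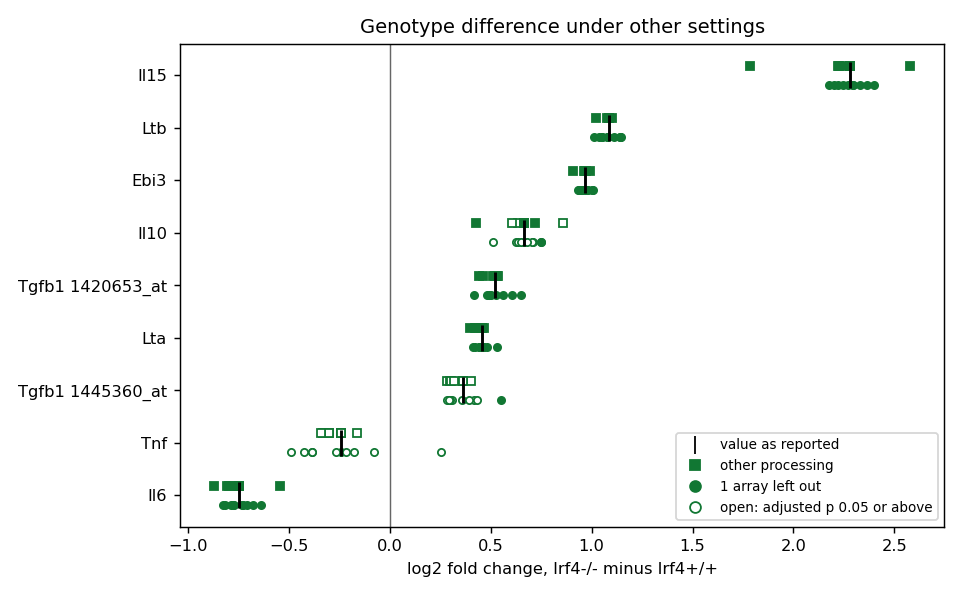
Log2 fold change of each cytokine probe set as reported (black bar), under other processing (squares) and with 1 array left out (circles), with open symbols where the adjusted p was 0.05 or above. Il15, Ltb, Ebi3, Lta, Il6 and the brighter Tgfb1 probe set keep filled symbols, Il10 has mostly open circles, and Tnf crosses 0.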

How the data were processed

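Irf4+/+ and Irf4-/- B cells were each measured on 5 arrays, labelled from 6 ug of total RNA. The authors deposited 1 intensity per probe set and array, a linear signal. The submitters' processing notes name MAS5 without a version. The 2% trimmed mean was 250 on every array, so no further scaling was applied. Of 45101 probe sets, 64 controls were left out. The platform annotation gave 34945 probe sets 1 symbol, 932 several and 9160 none, and symbols were updated by gene ID through RefSeq (GRCm38.p6). No build is named for the arrays, so only the promoter windows carry coordinates.

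Probe sets whose mean log2(signal + 7.9) was under the 40th percentile were left out (7.9 is the 20th percentile of signal). Genotype was the single term in limma 3.58.1 (R 4.3.3, eBayes with trend), with Benjamini-Hochberg adjustment over all 27022 probe sets, two-sided. For lists, each gene's brightest probe set was read from that fit. The genes, lists and tests were chosen with earlier results of these data known. Every cytokine probe set is named, with up to 4 genes of smallest p per list and others where stated. The procedure was tested on simulated data with independent noise and few changed probe sets, unlike these data, where 39.7% were called. That test does not bear on the calls of dim genes or small changes. Labels and headers give no scan date or batch. Same-numbered arrays of the genotypes did not deviate together (r from -0.0318 to 0.0407), so the numbers were not treated as pairs.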

Additional observations from a re-analysis of the deposited data

Results flagged for a closer look

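Tnf on Irf4-/- array 2 stood apart from the rest of its group. Its signal there was 16.2, while the other Irf4-/- arrays gave 93.4 to 149.7. The gap to the nearest array was 0.765 of the group's range on the log2 scale, above the 95% critical value of 0.710 for 5 samples. Of 18 groups examined this was 1, and chance alone gives about 1 in 20. No other cytokine probe set had that array as an outlier.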

How the results depend on the processing

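Over the 23 alternatives, Ltb (log2 fold changes 1.01 to 1.14), Ebi3 (0.91 to 1.01), Lta (0.40 to 0.53), the brighter Tgfb1 probe set (0.42 to 0.65), Il15 (1.78 to 2.58) and Il6 (-0.87 to -0.55) kept direction and call wherever they were tested. Il10 lost its call with a pseudocount of 1 (0.86), no filter (0.67), quantile normalization (0.63), median centring (0.61) and the replicate number as a block (0.67). With arrays left out Il10 gave 0.51 to 0.75, the dimmer Tgfb1 probe set 0.28 to 0.55 and Tnf -0.49 to 0.25, the last with its sign turned without Irf4-/- array 2. The cause was not tested. The replicate block changed no other cytokine call. With the filter at the 60th percentile 4 cytokine probe sets were called, since only 5 were then tested. Over all features, 10726 probe sets were called, 5764 with the brightest probe set per gene and 4973 with the mean of a gene's probe sets, which test fewer features. Of 1340 recomputed values of 59 other named genes, chosen for recomputation after the data were seen, 1321 kept direction and call, 15 lost the call, 3 gained it and 1 turned (Elavl1, 0.31 with the mean of its probe sets). Dim signals limit Il10, Il6, Il15 in Irf4+/+ samples and the dimmer Tgfb1 probe set.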

Other observations

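Irf4+/+ array 5 was the highest of its group for 6 of the 9 cytokine probe sets (Lta, Ltb, Tnf, Ebi3 and both of Tgfb1) and the lowest for Il6. Irf4-/- array 1 was the highest of its group for 6 of the 9 (Lta, Ltb, Tnf, Il6, Il10 and Il15). The pattern was noticed in the data and not tested.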
